A study of Mus musculus with 10 samples.

Results

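Immediate-early genes and their companions, the genes that cells switch on within minutes of a stimulus or of being taken out of a tissue, formed a module of 37 named genes. All 37 matched exactly 1 of the 46517 Ensembl genes in the count tables, and all 37 had at least 1 read in a kept cell. The rule is a list of names with no threshold on a measured value. The levels were read in dermal endothelial cells of the ear skin, sorted as single cells into 384-well plates and sequenced with Smart-Seq2, which gives full-length coverage of transcripts and has no molecular barcodes. The mutant group held 5 mice of the strain Pik3caH1047R;Cdh5-CreERT2 that were Cre+ and had received 4-OHT (4-hydroxytamoxifen) on the ears at 3 wk. In these mice the Cre is driven by *Cdh5*, the gene of an adhesion protein of endothelial cells, so that the activating PI3K mutation is switched on in endothelium and not in other skin cells. The control group held 2 mice. Control 1 was an untreated C57BL/6J mouse, and control 2 was Cre- and of the mutants' strain with the same 4-OHT. All mice were 5 wk old. The tissue of every mouse had been digested with Collagenase II and the cells stained for Podoplanin and CD31, with blood cells and dead cells gated out. Plates carried numbers in the 300s for mutants 1–4 and in the 890s and 900s for mutant 5 and both controls, so genotype and plate series cannot be told apart in mutants 1–4, and mutant 5 is the only mutant on the plates of the controls' series.

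Immediate-early genes need no new protein for their first transcription. Growth factors, shear stress, wounding or heat reach their promoters through MAP kinases, calcium and cyclic AMP, and through factors already bound or waiting in the cell: SRF with its ternary complex partners at CArG boxes, CREB at cyclic AMP response elements, and HSF1 at heat shock elements. The first products are mostly transcription factors of the AP-1 and EGR families, which act on a second wave of genes, and feedback inhibitors such as dual-specificity phosphatases and mRNA-destabilizing zinc finger proteins, which end the response. The same genes rise in many tissues while cells are freed by warm enzyme digestion. In endothelium some members have standing roles as well, above all *Klf2* and *Klf4*, which are kept on by laminar flow.

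Promoter windows of 4 members are shown because they hold the letters of elements named above and because these members stand for different branches of the module. They are the 250 bases before the annotated start in RefSeq, on build GRCm38.p6, read 5′ to 3′ on the gene's own strand, with matched motifs in capitals, and they overlap no annotated exon of GENCODE vM21. Positions are *Fos* chr12:85473640-85473889 (plus strand), *Junb* chr8:84978749-84978998 (minus strand), *Btg2* chr1:134079156-134079405 (minus strand) and *Hspa1a* chr17:34972157-34972406 (minus strand). Capitals mark TGACG, the core of the cyclic AMP element, 129 and 66 bases before the start in *Fos* and 106 bases before it in *Junb*. In *Btg2* they mark the whole cyclic AMP element TGACGTCA 166 bases and the EGR motif GCGNGGGCG 131 bases before the start, and in *Hspa1a* the heat shock motif GAANNTTC 104 bases before the start.
Fos: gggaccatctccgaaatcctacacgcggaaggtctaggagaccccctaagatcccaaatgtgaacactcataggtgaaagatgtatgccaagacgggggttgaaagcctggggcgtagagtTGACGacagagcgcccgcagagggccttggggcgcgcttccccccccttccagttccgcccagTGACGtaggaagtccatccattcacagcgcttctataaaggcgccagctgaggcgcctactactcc
Junb: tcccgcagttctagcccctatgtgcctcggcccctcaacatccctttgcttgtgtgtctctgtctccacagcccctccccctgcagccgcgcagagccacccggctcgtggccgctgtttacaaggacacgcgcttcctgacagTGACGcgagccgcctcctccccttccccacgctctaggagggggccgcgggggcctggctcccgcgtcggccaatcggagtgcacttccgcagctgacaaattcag
Btg2: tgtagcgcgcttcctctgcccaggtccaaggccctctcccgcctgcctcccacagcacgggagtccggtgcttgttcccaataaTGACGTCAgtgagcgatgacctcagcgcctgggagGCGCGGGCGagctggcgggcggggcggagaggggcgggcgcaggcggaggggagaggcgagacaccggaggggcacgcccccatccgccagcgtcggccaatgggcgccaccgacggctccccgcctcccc
Hspa1a: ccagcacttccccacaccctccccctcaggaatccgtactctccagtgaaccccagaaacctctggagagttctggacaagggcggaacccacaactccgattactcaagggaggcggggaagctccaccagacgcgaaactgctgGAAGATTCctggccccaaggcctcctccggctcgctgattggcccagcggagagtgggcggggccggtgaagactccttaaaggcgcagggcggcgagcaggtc

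Motifs were searched on both strands in windows of 250 bases before to 50 after the start, which the table gave for 32 of the 37 members (none for *Fosl1*, *Cebpd*, *Ier2*, *Egr1* and *Egr3*). TGACG stood in 18 of the 32 members (56.2%) and in 23% of all 27025 genes with a window. TGACGTCA, which contains TGACG, stood in 4 (*Btg2*, *Dusp1*, *Maff* and *Ppp1r15a*; 12.5%) against 2.03% of genes. GCGNGGGCG stood in 11 members (34.4%) against 6.27%, and the CArG box in 2, *Egr2* and *Zfp36* (6.25%), against 1.81%. GAANNTTC was found in 4, *Fosl2*, *Hspa1a*, *Hspa1b* and *Jun* (12.5%), against 9.04%, its mirror order TTCNNGAA in *Egr2* alone (3.12%, against 9.6%), and the AP-1 motif TGANTCA in *Zfp36l1* alone (3.12%, against 8.97%). Elements outside these windows were not searched, so the absence of a match does not show that a gene lacks the element. A match describes letters only, and shows neither binding nor use.

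A total of 3248 cells on 9 plates passed the filters, 384 wells per plate having been sequenced to between 99969650 and 151812175 reads. Cells were classed by marker reads as LECs (1618 cells, by *Prox1*, *Flt4* and *Mmrn1*), BECs (1454, by *Flt1*, *Emcn* and *Podxl*) or keratinocytes (38, by *Krt5* and *Krt14*). A further 59 cells met both the keratinocyte and an endothelial rule, and 79 met none. Markers that had no part in this rule, *Lyve1*, *Pdpn* and *Ccl21a* among those of LECs and *Cd34*, *Ly6c1* and *Nrp1* among those of BECs, were read together with the rule's own. Summed over 6 markers, LEC genes stood at 6703–9821 CPM (each library's reads scaled to the same total) in LECs and 161.9–648 CPM in BECs of the 7 mice. Part of this gap was set by the class rule, since the sum includes *Prox1*, *Flt4* and *Mmrn1*. No well is shared between plates, so no cell is counted in more than 1 library.

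The module value, the summed CPM of the 37 members in a cell, was modestly lower in mutant than in control LECs, with overlap between the groups. The median LEC stood at 4661 CPM in control 1 and 3510 CPM in control 2, and at 3124, 2789, 3038, 3330 and 3930 CPM in mutants 1–5. Control 2 thus lay below mutant 5. In BECs the medians were 5771 and 3523 CPM in the controls and 4005, 3745, 2893, 4486 and 3573 CPM in the mutants, so control 2 lay below 4 of the 5 mutants. On the log2 scale the mean of the mice was lower in mutants by 0.33 in LECs and by 0.28 in BECs (mutant SD 0.18 and 0.23), and no test is given for a value summed over chosen genes. At the upper quartile over cells the groups still overlapped, with LECs at 5255 CPM in control 2 and 5434 CPM in mutant 5. For BECs this quartile was 5595 CPM in control 2 and 6993 CPM in mutant 4. At the 90th percentile the groups did not overlap. The LEC at the 90th percentile stood at 18388 and 10235 CPM in the controls and between 5169 and 7817 CPM in the mutants. In BECs it stood at 17801 and 18962 CPM in the controls and between 6196 and 14124 CPM in the mutants, with mutant 5 the highest. A few members made up most of the sum. *Apold1*, an endothelial membrane-associated protein, gave 13.1% of it in LECs, *Dusp1* 9.86%, and the first 6 members together 50.6%, so the sum says little about the other members.

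Per kilobase of exon, the scale on which genes can be compared, *Fos* led control LECs at 273 CPM/kb (190 and 356 in the 2 mice). *Dusp1* followed at 258 (180 and 336), *Junb* at 207 (139 and 276), *Ier2* at 205 (139 and 272) and *Cebpd* at 200.3 (117 and 283). The 2 control mice spanned more than the steps between these 5, so their order is not resolved. In mutant LECs the same members stood at 57.96 ± 34.7, 139 ± 73.5, 41.96 ± 19.9, 89.8 ± 14.5 and 80.8 ± 16.1 CPM/kb (mean ± SD, n = 5).

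To compare genotypes, reads were summed over all LECs of a mouse and tested across the 7 mice with edgeR. In such a sum, fewer cells using a gene and less RNA of it per cell cannot be told apart. Of the 37 members, 35 passed the filter on low counts and 9 were called at an adjusted p under 0.05, 7 lower and 2 higher in mutant LECs. Of all genes tested, 3.91% were called (763 of 19490). By GENCODE vM21 on GRCm38, 5 of the 9 lie at chromosome 12, 85473890–85477273 (*Fos*), chromosome 8, 84974484–84978718 (*Junb*), chromosome 17, 35821684–35822923 (*Ier3*), chromosome 1, 155096361–155099636 (*Ier5*) and chromosome 7, 28376784–28380253 (*Zfp36*). The median log2 fold change of the 35 was −0.49, and that of all genes −0.01. Groups of mice did not overlap for 14 members, 11 with every mutant below both controls and 3 with every mutant above, while 26.1% of all genes did not overlap. DESeq2 called 13 members, against 2623 of all 19490 genes. The filter removed *Egr3* and *Nr4a3*. *Egr3* had 13 and 7 reads in the control LECs and 0 in all 5 mutants, and *Nr4a3* had 4 and 8 reads in the controls and 1, 0, 4, 154 and 6 in the mutants.

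Among the AP-1 genes, which encode the FOS and JUN partners of a dimeric transcription factor, *Fos* and *Junb* fell in mutant LECs. *Fos* stood at 841 and 425 CPM in controls 1 and 2 and at 110.2, 66.4, 101, 133 and 276 CPM in mutants 1–5 (log2 fold change −2.20, SE 0.47, adjusted p 0.0429, edgeR). *Junb* stood at 509 and 244 CPM in the controls and at 63.5, 42.0, 60.9, 86.1 and 137 CPM in the mutants (−2.27, SE 0.42, adjusted p 0.0275). For both genes the groups did not overlap, mutant 5 was the mutant nearest to the controls, and control 2 was closer to mutant 5 than to control 1. *Jun* stood at 565 and 308 CPM in the controls and at 211, 132, 148, 233 and 269 CPM in the mutants, without overlap but short of a call (−1.14, SE 0.31, adjusted p 0.0817). *Jund*, which is made in resting cells too, was at 0.11 (SE 0.33), *Fosl2* at −0.06 and *Fosb* at −1.30 (SE 1.04) on the log2 scale, none called. *Fosl1*, another FOS gene, ran the other way at low level, with 2.02 and 0.586 CPM in the controls and 5.37–10.5 CPM in the mutants (2.54, SE 0.67, adjusted p 0.0736).

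*Egr1*, a zinc finger factor that binds GC-rich promoters, had the largest called change. Its level was 327 and 249 CPM in the controls and 37, 44.5, 30.1, 40.1 and 63 CPM in the mutants (−2.75, SE 0.26, adjusted p 0.00326, edgeR). Even the highest mutant, mutant 5, was far below the lower control. *Egr2* had 0.685 and 3.45 CPM in the controls and 0–2.61 CPM in the mutants, too little to place. The ATF and MAF partners of AP-1, *Atf3* and *Maff*, did not separate the genotypes. *Atf3*, a stress-induced repressor, stood at 2.88 and 22.3 CPM in the controls and at 2.28, 28.2, 9.15, 48.8 and 14.0 CPM in the mutants, a wider spread within each group than between them.

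Of the immediate early response genes, *Ier2* and *Ier3* fell and *Ier5* rose. *Ier3*, a regulator of survival downstream of NF-κB and ERK, stood at 152 and 123 CPM in the controls and at 41.8, 43.9, 35.4, 22.2 and 47.9 CPM in the mutants (−1.85, SE 0.27, adjusted p 0.0134, edgeR). *Ier2* stood at 415 and 201 CPM in the controls and at 124, 119, 123, 163 and 162 CPM in the mutants (−1.16, SE 0.26, adjusted p 0.0495). Control 2 was thus close to mutants 4 and 5 for *Ier2*, and the groups were further apart for *Ier3*. *Ier5*, a coactivator of HSF1 and a partner of phosphatase PP2A, stood at 10.5 and 13.2 CPM in the controls and at 65.6, 48.2, 46.4, 46.6 and 56.9 CPM in the mutants (2.16, SE 0.25, adjusted p 0.00584). Mutant 5 was here among the other mutants. *Apold1*, the most abundant member per cell, stood at 656 and 512 CPM in the controls and at 446, 449, 627, 712 and 878 CPM in the mutants, with full overlap (0.09, SE 0.27).

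The zinc finger proteins *Zfp36* (tristetraprolin) and *Zfp36l1* bind AU-rich elements and speed the decay of cytokine and immediate-early transcripts. *Zfp36* stood at 265 and 273 CPM in the controls and at 38.5, 38.2, 24, 63.7 and 73.5 CPM in the mutants (−2.50, SE 0.36, adjusted p 0.0132, edgeR). The 2 controls were nearly level, and each mutant was lower by more than the whole range of the mutants. *Zfp36l1* stood at 371 and 532 CPM in the controls and at 249, 291, 302, 262 and 153 CPM in the mutants (−0.85, SE 0.25, adjusted p 0.103). *Btg2*, an antiproliferative adaptor of the CCR4-NOT deadenylase, stood at 379 and 296 CPM in the controls and at 189, 139, 216, 209.7 and 166 CPM in the mutants (−0.88, SE 0.19, adjusted p 0.0441). Its relative *Btg1* lay between 145 and 259 CPM in all mice with no order by genotype.

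**Figure D1:**
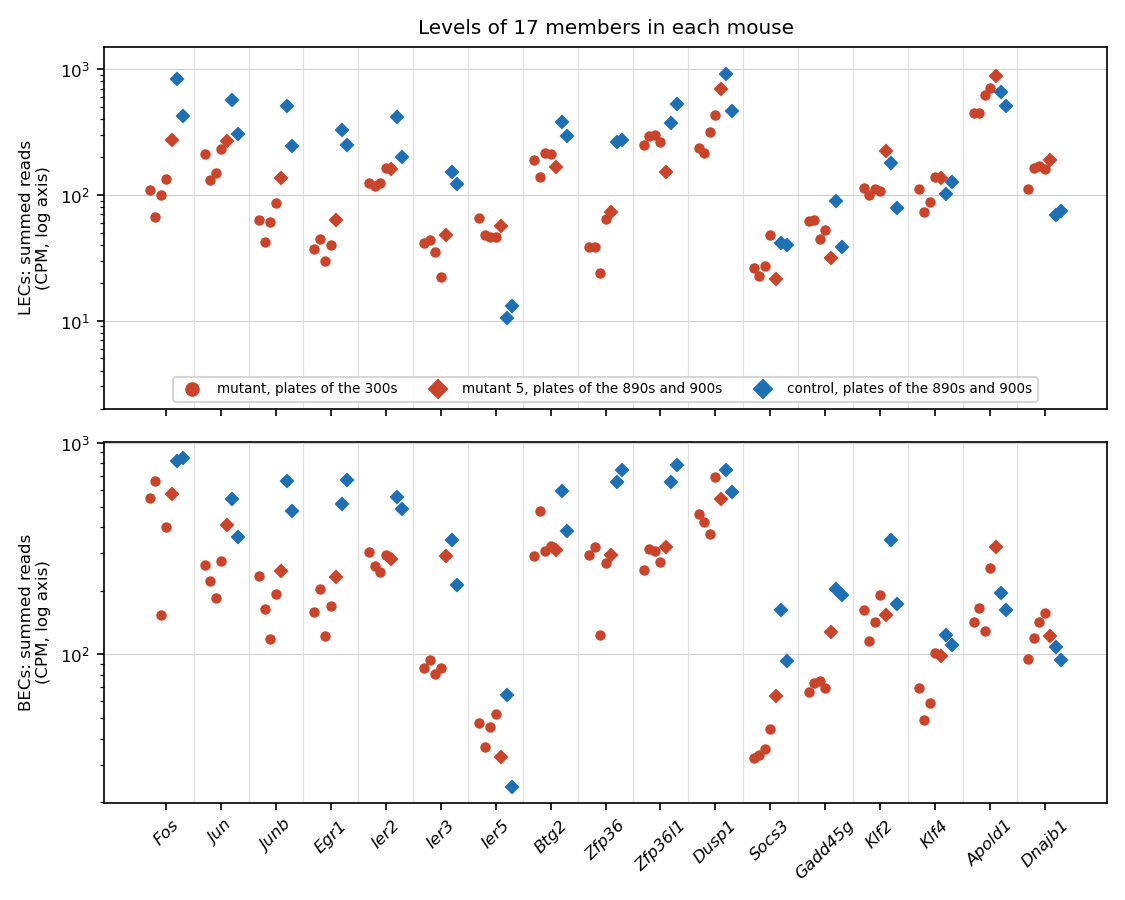
Levels of 17 members in each mouse, as TMM-scaled CPM of the reads summed over all LECs (top) or BECs (bottom) on a log axis, with 1 point per mouse. Red circles are mutants 1–4 (plates of the 300s), red diamonds mutant 5 and blue diamonds the controls (plates of the 890s and 900s). In LECs, *Egr1*, *Ier3* and *Zfp36* lie lower and *Ier5* higher in all 5 mutants, while *Apold1* and *Klf4* overlap.

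Dual-specificity phosphatase 1 (*Dusp1*), which switches off MAP kinases, was not called. It stood at 909.5 and 462 CPM in the controls and at 235, 214, 315, 428 and 697 CPM in the mutants (−0.86, SE 0.45, adjusted p 0.310). Mutant 5 exceeded control 2. *Socs3*, the inhibitor of JAK-STAT signaling, was at −0.49 and *Rhob*, a short-lived small GTPase, at 0.25 on the log2 scale, neither called. Among the C/EBP factors, *Cebpd* stood at 336 and 132 CPM in the controls and 108, 84.9, 82.2, 84.1 and 122 CPM in the mutants (−1.28, SE 0.32, adjusted p 0.0624), and *Cebpb* did not exceed 9.24 CPM in any mouse. The growth arrest genes *Gadd45b* and *Gadd45g*, and *Ppp1r15a*, which restores translation after stress, had log2 fold changes of −1.04, −0.34 and −0.75, none called. The nuclear receptors *Nr4a1* and *Nr4a2* did not exceed 24.3 and 13 CPM in any mouse and were not called.

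The flow-dependent factors did not follow *Fos*. *Klf2* stood at 178 and 78.1 CPM in the controls and at 114, 99.3, 111, 108 and 225 CPM in the mutants (0.04, SE 0.40). *Klf4* stood at 101 and 128 CPM in the controls and at 112, 73.2, 87.0, 139 and 137 CPM in the mutants (−0.06, SE 0.27). Both overlapped fully, and *Klf6* was at −0.56 (SE 0.30, adjusted p 0.318). Nor did the heat shock genes. *Hspa1a*, the inducible HSP70, stood at 14.3 and 3.74 CPM in the controls and at 5.67, 14.7, 12.4, 9.11 and 9.27 CPM in the mutants (0.19, SE 0.57), and its neighbor copy *Hspa1b*, whose near-identical sequence makes the split of reads between them uncertain, reached 2.95 CPM at most. *Dnajb1*, their HSP40 partner, rose, from 69.6 and 74.1 CPM in the controls to 111, 164, 168, 160.5 and 188 CPM in the mutants (1.14, SE 0.21, adjusted p 0.0295, edgeR).

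In BECs all 37 members were tested and 6 were called, all lower in mutants, against 2.4% of all genes (456 of 18989). DESeq2 called 9, against 2270 of all 18989 genes. The median log2 fold change was −0.73, against 0.01 for all genes. Groups of mice did not overlap for 17 members, 15 with the mutants below and 2 with them above (*Btg1* and *Cebpb*), against 25.3% of all genes. *Egr1* stood at 514 and 669 CPM in the controls and at 159, 203, 122, 169 and 231 CPM in the mutants (−1.74, SE 0.23, adjusted p 0.00916, edgeR). *Zfp36l1* stood at 652 and 784 CPM in the controls and at 249.9, 315, 309, 273 and 321 CPM in the mutants (−1.29, SE 0.14, adjusted p 0.00597). In both, mutant 5 was the highest mutant and still below both controls. *Junb* stood at 659 and 474 CPM in the controls and at 234, 165, 118, 194 and 249 CPM in the mutants (−1.56, SE 0.27, adjusted p 0.0259). *Ier2* stood at 552 and 485 CPM in the controls and at 306, 262, 246, 294 and 282 CPM in the mutants (−0.90, SE 0.13, adjusted p 0.0152). *Egr1*, *Junb* and *Ier2* were the members called in both cell classes.

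*Socs3* and *Gadd45g* were called in BECs and not in LECs. *Socs3* stood at 162 and 92.9 CPM in the control BECs and at 32.3, 33.5, 35.9, 44.6 and 63.8 CPM in the mutants (−1.60, SE 0.31, adjusted p 0.0366, edgeR). *Gadd45g* stood at 204 and 190.3 CPM in the controls and at 66.4, 73.6, 74.6, 69.2 and 128 CPM in the mutants (−1.26, SE 0.26, adjusted p 0.0445). In both genes the mutants on plates of the 300s lay close together and mutant 5 lay between them and the controls. *Fos* itself was not called in BECs. It stood at 820.3 and 847 CPM in the controls and at 551, 658, 154, 400.5 and 575 CPM in the mutants (−0.83, SE 0.43, adjusted p 0.312), with mutant 3 well apart. *Zfp36* stood at 652 and 743 CPM in the controls and at 294, 323, 124, 271 and 295 CPM in the mutants (−1.42, SE 0.30, adjusted p 0.0523). *Ier5*, which rose in LECs, lay at 64.5 and 23.7 CPM in the control BECs and 32.7–52.6 CPM in the mutants (−0.04, SE 0.37). *Egr2* and *Egr3* had 28.1 and 4.76 CPM, and 2.05 and 3.36 CPM, in the controls and at most 4.25 and 0.202 CPM in the mutants, and neither passed the test.

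The remaining members that were followed in every mouse were not called in BECs. *Jun* stood at 545 and 358 CPM in the controls and at 263, 222, 186, 276 and 411 CPM in the mutants (−0.73, SE 0.29), and *Dusp1* at 741 and 587 CPM against 461, 421, 373, 691 and 544 CPM (−0.41, SE 0.23). *Klf2* stood at 348 and 173 CPM against 162, 116, 143, 192 and 153 CPM (−0.77, SE 0.27), and *Klf4* at 123 and 110.4 CPM against 69.5, 48.8, 58.9, 102 and 98.2 CPM (−0.63, SE 0.29). *Klf4* did not overlap between the groups, while for the other 3 at least 1 mutant reached control 2. *Atf3* stood at 29.6 and 113 CPM against 24, 25.4, 7.28, 48.4 and 17.1 CPM (−1.54, SE 0.65), *Hspa1a* at 29.4 and 21.5 CPM against 12.1, 10.9, 15.1, 17.4 and 10.1 CPM (−0.95, SE 0.32) and *Cebpd* at 156 and 95.4 CPM against 81.7, 52.0, 60.5, 67.8 and 198 CPM (−0.45, SE 0.50). The adjusted p of these 7 ran from 0.158 to 0.651.

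Whether the mutant effect differed between LECs and BECs was tested as an interaction with the mouse as a block. No member passed with edgeR, against 0.217% of all genes (47 of 21696). Its unadjusted p was under 0.05 for 10 members, against 2610 of all genes. DESeq2 called 4 members, against 1334 of all genes. The difference was 2.03 (SE 0.50, adjusted p 0.166) on the log2 scale for *Ier5* and −1.30 (SE 0.67, adjusted p 0.512) for *Fos*. The contrast of a call in LECs and none in BECs is therefore not shown to be a difference between the classes.

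**Figure D2:**
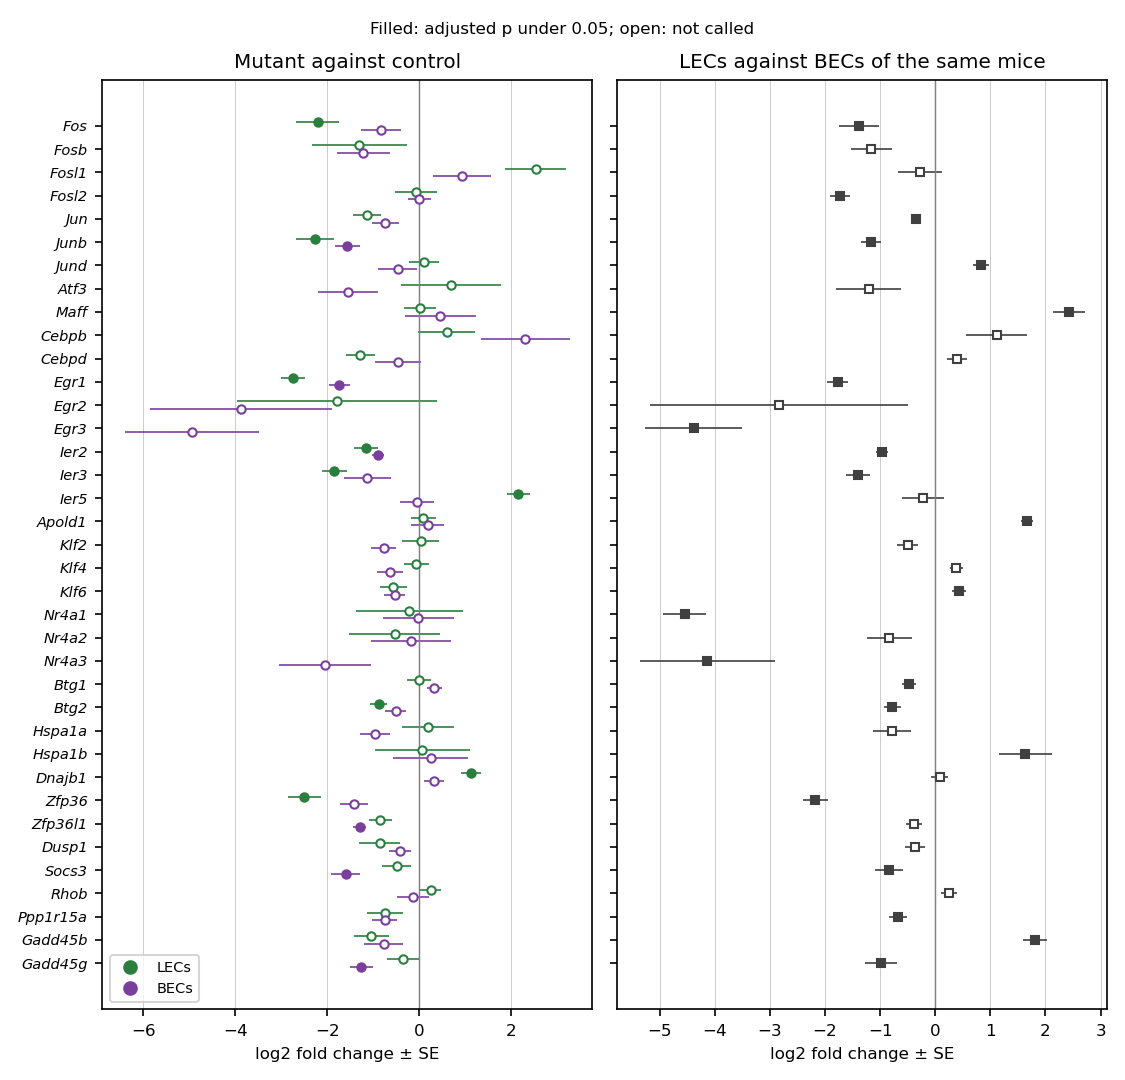
Log2 fold changes of the members with their SE from edgeR, mutant against control in LECs (green) and BECs (purple) on the left and LECs against BECs of the same mice on the right; filled symbols have an adjusted p under 0.05. *Egr3* and *Nr4a3* have no value for LECs on the left, and most filled symbols there lie below 0, with *Ier5* and *Dnajb1* in LECs above.

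Because the plates of mutants 1–4 carry another number series than those of the controls, the genotypes were also compared with the series as a block and within the series of the 890s and 900s, which leaves mutant 5 against the 2 controls. The 300s hold no control, so the blocked contrast also rests on mutant 5 alone against the controls, with the other mutants adding only to the estimate of spread. With the block, 2 members were called in LECs, *Egr1* (−2.18, SE 0.32, adjusted p 0.0364, edgeR) and *Ier5* (2.29, SE 0.32, adjusted p 0.0317), and in BECs 0 of 37 (10 at an unadjusted p under 0.05). Of all genes, the blocked fit called 169 of 22104 in LECs and 47 of 21630 in BECs (2037 at an unadjusted p under 0.05). Among the calls lost in LECs, the fold change of *Fos* was −1.18 with the block and −2.20 without, that of *Junb* −1.44 and −2.27, that of *Zfp36* −1.85 and −2.50, that of *Ier3* −1.50 and −1.85, that of *Ier2* −0.91 and −1.16, that of *Btg2* −1.01 and −0.88, and that of *Dnajb1* 1.41 and 1.14. All 7 kept their direction, and *Btg2* and *Dnajb1* were no smaller. Of members not called in either fit, *Dusp1* went from −0.86 to 0.04, *Zfp36l1* from −0.85 to −1.54 and *Gadd45b* from −1.04 to −1.98. *Nr4a1*, which was scarce in LECs, went from −0.21 to −4.35. In BECs the 6 lost calls kept their direction as well, *Egr1* at −1.34 with the block and −1.74 without, *Zfp36l1* at −1.15 and −1.29, *Junb* at −1.17 and −1.56, *Ier2* at −0.86 and −0.90, *Socs3* at −0.98 and −1.60, and *Gadd45g* at −0.61 and −1.26. Not all uncalled members did so in BECs, where *Ier3* went from −1.13 to 0.08 and *Cebpd* from −0.45 to 0.67. Of the 37 members, 11 had a higher estimate in mutant BECs with the block and 8 without. Within the 890s and 900s alone, mutant 5 is the only mutant, so only fold changes are given. That fit has 1 residual degree of freedom. There the fold change in LECs was −2.18 for *Egr1*, 2.28 for *Ier5* and −1.19 for *Fos*. When each mouse was left out in turn, 3–7 members were called in LECs: 3 without control 1, 4 without mutant 3 or 4, 5 without mutant 1 or 2, and 7 without control 2 or mutant 5. *Egr1*, *Ier5* and *Zfp36* passed in all 7 of these fits, *Ier3* in 6, *Junb* in 3, *Dnajb1* in 2, *Fos* and *Ier2* in 1 each and *Btg2* in 0. In BECs 2–7 were called, 2 without control 1 and 3 without control 2, mutant 2 or mutant 4, and *Zfp36l1* passed in all 7.

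The share of cells with a read was taken after thinning every cell to 50000 reads, so that deeper cells do not score higher. A *Fos* read was found in 96.7% and 71.5% of control LECs and in 41.7, 20.8, 28.7, 45.3 and 67.2% of the LECs of mutants 1–5. An *Egr1* read was found in 84.1% and 54.1% of control LECs and in 23.9, 12.6, 16.4, 28.5 and 33.6% of mutant LECs. Control 2 was close to mutant 5 for *Fos* and apart from all mutants for *Egr1*. An *Ier5* read was found in 8.24% and 9.30% of control LECs and in 27.9–35.0% of mutant LECs. *Dnajb1* reads were found in 29.7% of the LECs of each control and in 44.8–62.0% of mutant LECs. These shares were ordered between genotypes as the summed levels were.

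**Figure D3:**
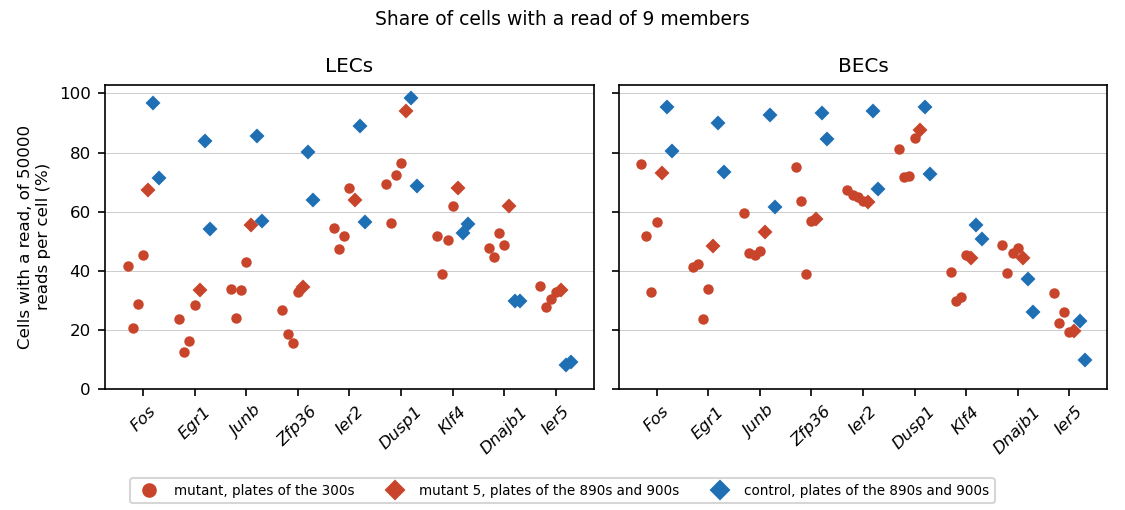
Percentage of LECs (left) and BECs (right) with at least 1 read of 9 members, after every cell was thinned to 50000 reads, with 1 point per mouse. Red circles are mutants 1–4, red diamonds mutant 5 and blue diamonds the controls. In LECs *Fos* runs from 20.8% to 96.7%, with mutant 5 next to control 2, and *Ier5* is lowest in both controls.

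LECs and BECs of the same mouse came from the same ears and the same plate, so plate and animal are shared within each pair. Their wells lay on different sides of the plate, with 1593 of 1618 LECs in columns 1–12 and 1427 of 1454 BECs in columns 13–24, so class and plate position cannot be told apart. With the mouse as a block, 22 of 37 members were called, 6 higher and 16 lower in LECs, against 22.2% of all genes (4814 of 21696). DESeq2 called 28, against 6579 of all 21696 genes. The median log2 fold change was −0.67. For 14 members LECs differed from BECs in the same direction in all 7 mice, against 20.9% of all genes. *Nr4a1*, a nuclear receptor made within minutes of a stimulus, had the largest change of the members. In mice control 1, control 2 and mutants 1–5 it stood at 56.2, 215, 60.4, 119, 124, 344 and 43.2 CPM in BECs and at 5.76, 10.8, 2.75, 4.70, 4.26, 24.2 and 0.395 CPM in LECs (−4.55, SE 0.39, adjusted p 5.08e-05, edgeR). The LECs were lower in every mouse. *Egr3* and *Nr4a3*, relatives of *Egr1* and *Nr4a1*, were scarce. *Egr3* stood at 2.03, 3.29, 0.0534, 0, 0.170, 0.206 and 0 CPM in BECs and at 0.233, 0.110 and then 0 CPM in the LECs of all 5 mutants (−4.38, SE 0.88, adjusted p 0.0119). *Nr4a3* stood at 1.20, 3.90, 0.374, 0.283, 0.499, 0.171 and 1.79 CPM in BECs and at 0.0717, 0.125, 0.0159, 0, 0.0350, 2.72 and 0.0304 CPM in LECs, with mutant 4 the other way round (−4.14, SE 1.23, adjusted p 0.0401).

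*Zfp36*, *Egr1* and *Fosl2* were also called lower in LECs. *Zfp36* stood in the same order of mice at 645, 729, 299, 319, 126, 276 and 293 CPM in BECs and at 264, 269.6, 38.9, 38.8, 24.2, 63.3 and 72.0 CPM in LECs (−2.17, SE 0.23, adjusted p 0.000163, edgeR). *Egr1* stood at 509, 656, 162, 201, 125, 172 and 229 CPM in BECs and at 326, 246, 37.4, 45.2, 30.4, 39.8 and 61.7 CPM in LECs (−1.77, SE 0.19, adjusted p 0.000174). *Fosl2* stood at 53.6, 71.4, 45.1, 59.2, 69.7, 79.4 and 68.1 CPM in BECs and at 12.1, 29.3, 20.3, 12.2, 14.3, 31.4 and 22.0 CPM in LECs (−1.73, SE 0.19, adjusted p 0.000187). All 3 were lower in the LECs of every mouse. *Ier3* (−1.40), *Fos* (−1.39), *Junb* (−1.17), *Gadd45g* (−0.99), *Ier2* (−0.97), *Socs3* (−0.84), *Btg2* (−0.78), *Ppp1r15a* (−0.67), *Btg1* (−0.47) and *Jun* (−0.35) were called lower as well. *Fos* was lower in the LECs of 6 mice and slightly higher in those of control 1 (836 against 812 CPM).

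Members higher in LECs were led by *Maff*, *Gadd45b* and *Apold1*. *Apold1* stood at 652, 506, 451, 456, 633, 707 and 861 CPM in LECs and at 192, 159, 144, 163, 131, 262 and 320.0 CPM in BECs (1.67, SE 0.11, adjusted p 1.15e-05, edgeR). *Gadd45b*, a stress sensor upstream of p38, stood at 64.4, 97.4, 59.8, 48.9, 42.5, 28.9 and 20.0 CPM in LECs and at 14.5, 25.1, 18.3, 9.64, 7.67, 13.6 and 10.1 CPM in BECs (1.82, SE 0.22, adjusted p 0.000354). *Maff*, a small MAF protein without an activation domain, stood at 10.5, 16.2, 20.0, 10.7, 13.8, 12.3 and 12 CPM in LECs and at 2.12, 2.23, 5.51, 1.16, 2.80, 1.61 and 4.25 CPM in BECs (2.42, SE 0.29, adjusted p 0.000354). Each was higher in the LECs of all 7 mice. *Jund* (0.83) and *Klf6* (0.43) were also called higher, as was *Hspa1b*, at 0.179, 2.35, 0.620, 0.745, 1.11, 2.93 and 1.32 CPM in LECs and 0.201, 0.387, 0.241, 0.212, 0.374, 0.445 and 0.511 CPM in BECs (1.63, SE 0.48, adjusted p 0.0376), with the limit on its split of reads from *Hspa1a* given above. Within the 890s and 900s alone (3 mice) 5 members were called, within the 300s (4 mice) 18 and within the mutants 18. Calls over all genes in these subsets were 871 of 19947, 3721 of 19488 and 4698 of 20420. These subsets were chosen after the data were seen.

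Within LECs, cells below the mouse's median *Lyve1* level were compared with those above it. *Lyve1* encodes a hyaluronan receptor that marks lymphatic capillaries. Only *Btg1* was called, against 0.783% of all genes (149 of 19030), and it was higher in *Lyve1*-low LECs of all 7 mice (201, 304, 257, 287, 311, 201 and 159 CPM against 108, 209, 208, 168, 182, 159 and 116 CPM; 0.58, SE 0.09, adjusted p 0.0254, edgeR). At an unadjusted p under 0.05 in edgeR there were 9 members, against 1866 of all 19030 genes. DESeq2 called 7, against 848 of all genes. The call of *Btg1* was lost without control 1, control 2, mutant 2 or mutant 3. *Fos* was at −0.10 (SE 0.35) between these groups of LECs.

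Keratinocytes are the epithelial cells of the epidermis. Those found here went through the same digestion and plates, and *Cdh5*-driven Cre is not made in them. There were 9, 8, 9, 4 and 8 of them from control 1, control 2 and mutants 3, 4 and 5. Their module value was high on plates of the 890s and 900s, in mutant 5 as in the controls. The median stood at 6349 and 11090 CPM in controls 1 and 2 and at 9843 CPM in mutant 5, and at 2657 and 2212 CPM in mutants 3 and 4. Of 31 members with a mean of at least 10 CPM, 10 were at least 4-fold higher in each mouse of the 890s and 900s than in each of the 300s, and 0 were lower by that factor, against 6.78% of all genes (686 of 10119) higher and 121 genes lower. The 10 were *Fos*, *Fosb*, *Jun*, *Junb*, *Egr1*, *Egr2*, *Atf3*, *Btg2*, *Dusp1* and *Ppp1r15a*. With 3 mice against 2 and few cells each, this is a description without a test.

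*Fos* stood at 1371, 1795 and 2054 CPM in the keratinocytes of control 1, control 2 and mutant 5 (plain CPM of the summed reads) and at 3.75 and 6.20 CPM in those of mutants 3 and 4. By cell, 6 of 9, 6 of 8 and 6 of 8 keratinocytes reached 100 CPM of *Fos* in the first 3 mice and 0 of 9 and 0 of 4 in the others. *Egr1* stood at 953, 1450 and 1325 CPM against 96.7 and 13.8 CPM, *Jun* at 702, 692 and 472 CPM against 54.4 and 41.3 CPM, and *Dusp1* at 887, 983 and 1328 CPM against 5.25 and 77.9 CPM. These 4 genes thus stood apart by series in the same cells. *Klf4*, which keratinocytes make as they differentiate, did not, at 155, 99.7 and 351 CPM against 244 and 477 CPM. *Hspa1a* did not either, at 105.5, 62.6 and 144.5 CPM against 69.4 and 95.1 CPM. All 6 keratinocyte markers were present in the keratinocyte sum of each of the 5 mice, at 12120–22020 CPM in total. Other cell types' markers were unequal, however: fibroblast markers summed to 957.5 and 2466 CPM in the control keratinocytes, 278 and 214 CPM in mutants 3 and 4 and 23.7 CPM in mutant 5, and mural markers reached 2131 CPM in mutant 3. Of cells with neither endothelial nor keratinocyte markers, 6 of 12, 12 of 21 and 5 of 14 reached 100 CPM of *Fos* in control 1, control 2 and mutant 5, and 2 of 7, 0 of 3, 1 of 11 and 2 of 11 in mutants 1–4. For *Dusp1* the counts were 4, 9 and 5 of these cells against 3, 0, 6 and 2, and the module medians overlapped between the series (3452–4167 CPM against 2796–4851 CPM). The cells that met both the keratinocyte and an endothelial rule carry keratinocyte reads too. In them *Fos* reached that level in 6 of 9, 6 of 6 and 4 of 6 cells against 1 of 6, 1 of 4, 4 of 16 and 2 of 12. *Dusp1* did so in 6, 4 and 3 against 1, 3, 13 and 10. *Egr1* did so in 2, 11 and 4 of the cells with neither kind of marker against 2, 0, 1 and 1. In the cells that met both rules it did so in 5, 5 and 2 against 2, 0, 5 and 5. For *Jun* the counts were 5, 9 and 5 against 3, 0, 2 and 4, and 5, 5 and 3 against 1, 1, 7 and 7. In both kinds of cell *Fos* thus had the higher share in every mouse of the 890s and 900s, while the shares for *Dusp1*, *Egr1* and *Jun* overlapped. Cells of a mouse are not replicates, and these counts carry no test.

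**Figure D4:**
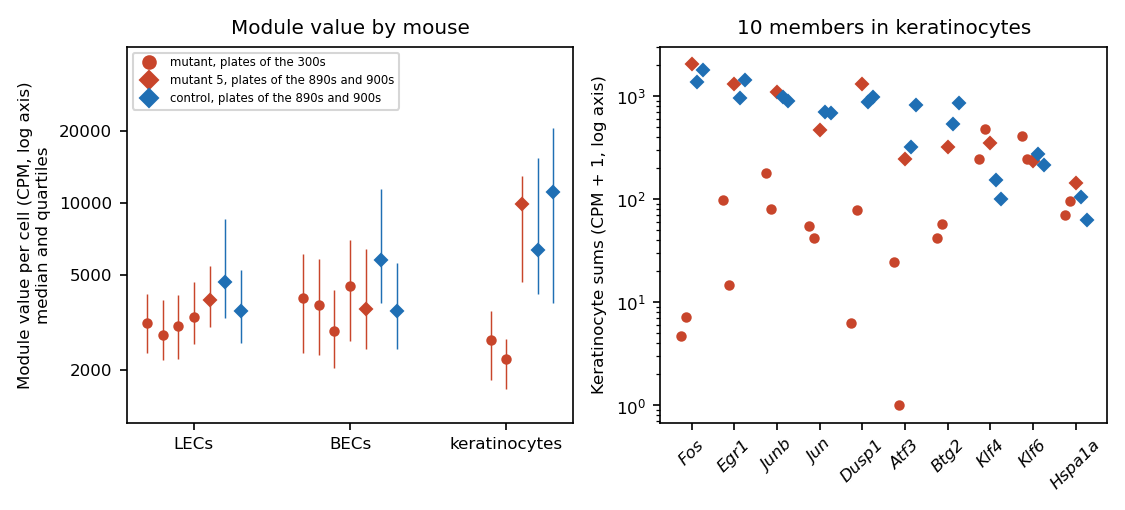
Left, module value per cell (summed CPM of the 37 members, log axis) in LECs, BECs and keratinocytes of each mouse, as median with quartiles over cells. Right, CPM + 1 (log axis) of 10 members in the summed keratinocytes of 5 mice. Red circles are mutants on plates of the 300s, red diamonds mutant 5 and blue diamonds the controls. Keratinocytes of mutant 5 sit with the controls at 6349–11090 CPM, those of mutants 3 and 4 at 2657 and 2212 CPM, and *Klf4* and *Hspa1a* do not separate by series.

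Against the LECs of the same 4 mice with at least 5 keratinocytes (both controls, mutants 3 and 5), 12 of 36 members tested were called, 8 higher and 4 lower in keratinocytes, against 5.85% of all genes (1085 of 18541). The median of all genes in this contrast was −0.89, and that of the members 0.61, on the log2 scale. *Egr2* stood at 141, 630.0, 0 and 243 CPM in the keratinocytes of control 1, control 2, mutant 3 and mutant 5 and at 0.715, 3.52, 0 and 0.402 CPM in LECs (8.01, SE 0.75, adjusted p 0.0027, edgeR). *Nr4a1* stood at 344, 889.5, 67.7 and 438 CPM in keratinocytes and at 6.04, 11.2, 4.51 and 0.413 CPM in LECs (6.33, SE 1.04, adjusted p 0.0132). *Hspa1a* stood at 98.8, 57.1, 69.2 and 150.1 CPM in keratinocytes and at 14.9, 3.81, 13.3 and 9.50 CPM in LECs (3.25, SE 0.72, adjusted p 0.0400). *Nr4a1* and *Hspa1a* were higher in the keratinocytes of all 4 mice, also in mutant 3, where *Egr2* was at 0 in both. *Atf3* stood at 300.2, 753, 23.6 and 256 CPM in keratinocytes and at 3.01, 22.8, 9.79 and 14.3 CPM in LECs (4.40, SE 0.93, adjusted p 0.0343). *Egr1* stood at 892, 1323, 96.5 and 1377 CPM in keratinocytes and at 342, 254, 32.2 and 64.5 CPM in LECs (2.39, SE 0.51, adjusted p 0.0353). *Zfp36* stood at 444, 999, 137 and 424 CPM in keratinocytes and at 277, 278, 25.6 and 75.3 CPM in LECs (1.87, SE 0.37, adjusted p 0.0284). For these 3 mutant 3 was lowest among the keratinocytes and still above its own LECs. *Junb* (1.74) and *Ier2* (1.57) were called higher too. *Apold1* was lower, at 34.0, 2.52, 78.2 and 23.5 CPM in keratinocytes against 684, 522, 670.3 and 899.6 CPM in LECs (−4.96, SE 0.74, adjusted p 0.00945). *Klf2* was lower, at 17.6, 2.52, 21.3 and 3.26 CPM against 186, 79.6, 119 and 231 CPM (−4.19, SE 0.80, adjusted p 0.0242). *Apold1* and *Klf2* were thus largely endothelial among these classes. *Cebpd* stood at 35.0, 1.4, 12 and 26.8 CPM against 350.2, 134, 87.9 and 125 CPM (−3.55, SE 0.80, adjusted p 0.0423), and *Rhob* at 80.1, 23.2, 39.3 and 77.8 CPM against 232, 182, 203 and 218 CPM (−2.08, SE 0.45, adjusted p 0.0381). Leaving out 1 mouse left 2–5 calls, 4 without control 1 or control 2, 5 without mutant 3 and 2 without mutant 5.

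Other measures differed between mutant and control endothelial cells too, and mutant 5, on the controls' plate series, lay on the other mutants' side of both controls in LECs for fibroblast, keratinocyte, mural and cell cycle markers and for spike-in reads. Fibroblast markers, 6 genes led by collagens, summed to 445 and 199 CPM in control LECs and 20.5–127.6 CPM in mutant LECs, and to 1003 and 755 CPM against 17.6–70.6 CPM in BECs, where 5 of 6 were called lower in mutants. Keratinocyte markers summed to 179 and 221 CPM in control LECs and 18.5–46.6 CPM in mutant LECs. The share of spike-in reads had medians of 0.638% and 0.693% in control LECs and 0.203–0.334% in mutant LECs (0.314% in mutant 5). Cell cycle markers ran the other way, at 53.7 and 73.6 CPM in control LECs and 393–658 CPM in mutant LECs, with 7 of 7 called higher. Without cycling cells 5 members were called in LECs (*Egr1*, *Ier3*, *Ier5*, *Junb* and *Zfp36*). Mural markers summed to 118 and 67.2 CPM in control LECs and 34.1–59.7 CPM in mutant LECs (1 of 6 called, lower), and immune markers to 17.6 and 6.9 CPM against 13.2–47.0 CPM (1 of 4 called, higher). Schwann cell markers summed to 80.8 and 19.5 CPM against 8.7–20.0 CPM, with edgeR calling 0 of 5 (3 at an unadjusted p under 0.05, 0 by DESeq2). The part of these measures in the differences between genotypes was not tested.

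All cells of a plate share animal, digestion, genotype and series. Over the LECs of a plate, Spearman's rho with *Fos*, averaged over 9 plates, was 0.325 for *Egr1*, 0.309 for *Zfp36*, 0.277 for *Fosb*, 0.258 for *Dusp1* and 0.224 for *Junb*. In BECs it was 0.399 for *Junb*, 0.398 for *Egr1*, 0.392 for *Zfp36* and 0.317 for *Jun*. The heat shock genes were near 0 in LECs (0.0279 for *Hspa1a* and 0.0363 for *Dnajb1*), and *Ier5*, which rose in mutants, was at 0.0848. The cells also share a library preparation and differ in depth, so these values describe the plates and carry no test. The module value of LECs had a rho with the mitochondrial share of −0.291 and −0.288 in the controls and between −0.24 and 0.107 on the mutant plates. Its rho with the plate column of the well lay between −0.103 and 0.102.

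Mutants 3 and 5 each had 2 plates. The median module value differed between plates of one mouse by 0.07 (mutant 3) and 0.03 (mutant 5) in LECs and by −0.07 and −0.10 in BECs on the log2 scale, plate 2 against plate 1, all smaller than the SD between mutants. Of the 26 and 28 members above 10 CPM, 2 in each mouse differed by more than 2-fold between plates in LECs, *Fos* (1.41 on the log2 scale) and *Egr1* in mutant 3, and *Zfp36l1* (−1.43) and *Gadd45g* (1.15) in mutant 5. In BECs 3 of 25 did so in mutant 3, *Zfp36* (−1.07), *Gadd45g* and *Cebpd*, and 2 of 27 in mutant 5, *Zfp36l1* (−1.43) and *Ier5*. Levels of *Fos* and *Egr1* in the LECs of mutant 3, and of *Zfp36* in its BECs, are thus means over plates that were unlike.

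Genes around the module were counted in the same way, where 3.91% of all genes were called between genotypes in LECs and 2.4% in BECs. Of 24 further genes known to respond to dissociation, 1 was called higher and 1 lower in mutant LECs, *Ccl2*, a monocyte chemokine (3.30, SE 0.66, adjusted p 0.0348, edgeR), and *Pim1*, a survival kinase (−2.65, SE 0.42, adjusted p 0.0170). In BECs, of 25, *Ccl2* was higher (6.75) and *Id3* lower (−0.64). Of 13 other heat shock and chaperone genes, *Hspb1* was lower in LECs (−1.31, SE 0.19, adjusted p 0.0127) and BECs (−1.24, SE 0.12, adjusted p 0.00318), and *Hspa5*, the chaperone of the endoplasmic reticulum, was higher in LECs (0.50, SE 0.11, adjusted p 0.0483). Among 21 upstream kinases and factors 1 was called in LECs, the ternary complex factor *Elk3* (0.62, SE 0.13, adjusted p 0.0402), and edgeR called 0 in BECs (4 at an unadjusted p under 0.05, 1 by DESeq2). Among 9 partners in mRNA decay 1 was called in LECs, *Elavl1*, which stabilizes AU-rich transcripts (0.98, SE 0.16, adjusted p 0.0181), and edgeR called 0 in BECs (1 at an unadjusted p under 0.05, 1 by DESeq2). Between LECs and BECs, where 22.2% of all genes were called, the calls were 14 of 25 dissociation genes (3 higher in LECs), 4 of 13 chaperones (3 higher), 7 of 21 upstream genes (2 higher) and 3 of 9 decay partners (1 higher). Between keratinocytes and LECs, where 5.85% of all genes were called, edgeR called 3 of 25 dissociation genes (*Sik1* higher, *Ccl2* and *Dusp2* lower) and 2 of 21 upstream factors (*Elk3* and *Mef2c*, both lower). In LECs against BECs *Errfi1*, a feedback inhibitor of the EGF receptor, was higher (2.90) and *Arc* (−6.13), *Sik1* (−3.84) and *Il6* (−3.59) lower.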

How the data were processed

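The authors aligned Smart-Seq2 reads to GRCm38 and deposited raw read counts per gene and well; the submitters' processing notes name TopHat2 2.1.1, SAMtools 0.1.18, featureCounts and R 3.5.1. Duplicate reads had been removed, and exon lengths came in a second deposited file. The annotation version is not given in the sources used here, and strand was not stated. Symbols came from GENCODE vM21 (46005 of 46517 Ensembl genes), and 92 spike-ins were left out of sums and tests. The counts of the third control were not analysed here.

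Wells were kept as cells with 200 genes or more, 50000 reads or more and no more than 10% of reads from mitochondrial genes. LECs had at least 300 CPM of *Prox1*, *Flt4* and *Mmrn1* together and more of these than of *Flt1*, *Emcn* and *Podxl*; BECs were the reverse, and keratinocytes had at least 1000 CPM of *Krt5* and *Krt14*. No doublet caller was run. Cells reaching both endothelial limits stayed in the class with the larger marker sum. Cells that met both the keratinocyte and an endothelial rule stayed out of all 3 classes. Counts were summed per mouse (at least 5 cells; LEC sums held 54095468–193173800 and BEC sums 38152758–99002725 reads) and tested by edgeR 4.0.16 under R 4.3.3 (quasi-likelihood F test after TMM scaling and the filterByExpr filter, Benjamini-Hochberg over all genes tested), with DESeq2 1.42.0 as an alternative. Within-mouse comparisons had the mouse as a block. CPM are TMM-scaled unless called plain. Reads are not independent molecules, since molecular barcodes were absent. The scripts were tested on simulated data. Python 3.11.15, pandas 2.3.3 and matplotlib 3.10.9 were used for the rest.

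The members, the other gene lists (dissociation, heat shock, upstream and mRNA decay genes, and cell type markers) and the tests were chosen with earlier results of these data known. Values in every mouse were given for up to 10 called members per comparison by size of change, the 5 members with the highest level per kilobase in control LECs, and *Fos*, *Jun*, *Egr1*, *Atf3*, *Dusp1*, *Hspa1a*, *Klf2* and *Klf4*; of the other lists up to 4 called genes were named. Alternatives were DESeq2, its size factors in edgeR, no filter, each mouse left out, thinned cells, a stricter class rule (600 CPM and 2-fold), no cycling cells, mixed cells kept, first plates only, the replicate block and the plate series.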

Additional observations from a re-analysis of the deposited data

Results flagged for a closer look

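Among the 5 mutant mice, 1 mouse stood far from the other 4 in 12 of the tested combinations of member and class, the gap to the nearest mouse, given below as a ratio to the range of the 5, exceeding Dixon's 95% critical value. The combinations were the 35 members tested in LECs and the 37 tested in BECs, and the module value of each class was examined too. Chance alone flags about 1 in 20 groups of normally distributed values. The ratio was taken on CPM and not on their logarithms, and whether these values are normally distributed was not tested. In LECs mutant 4 stood above the rest for *Nr4a1* (24.3 CPM against 0.403–4.63; ratio 0.824), *Nr4a2* (13 against 1.05–3.74; 0.774) and *Socs3* (47.9 against 21.6–27.1; 0.789), and it was also the highest for *Nr4a1* in BECs (338 against 43.6–122; 0.733). Mutant 5, on the plates of the controls' series, stood above the rest for *Klf2* in LECs (225 against 99.3–114; 0.888) and in BECs for *Ier3* (292 against 80.5–94.4; 0.934), *Gadd45g* (128 against 66.5–74.6; 0.868), *Cebpd* (198 against 52.0–81.7; 0.797) and *Nr4a3* (1.80 against 0.168–0.490; 0.803). Mutant 2 stood above the rest for *Egr2* in LECs (2.61 against 0–0.393; 0.850) and *Btg2* in BECs (477 against 293–326; 0.822). *Zfp36* in BECs was the 1 case of a low mouse, mutant 3 (124 against 271–323; 0.738), whose 2 plates differed for it by −1.07 on the log2 scale.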

How the results depend on the processing

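In LECs the 9 calls between genotypes became 3 with the replicate block (which pairs mutants and controls 1 and 2), 2 with the plate series as a block, 5 without cycling cells and 3–7 with a mouse left out. Over all genes the 763 calls became 15 with the replicate block, 169 with the series block and 277 without cycling cells. The fit within the 890s and 900s has mutant 5 alone and is given above by fold change only. In BECs the 6 calls became 0 with the replicate block, 0 with the series block and 2–7 with a mouse left out. Over all genes the 456 calls in BECs became 47 with either block. The replicate numbers are not a pairing by design: deviations of same-numbered mice correlated at −0.031 and −0.015 in LECs and 0.007 and 0.133 in BECs. Without the mouse as a block the 22 calls of LECs against BECs became 13 and the call for *Lyve1* became 0. The calls of LECs against BECs became 5 within the 890s and 900s and 16–19 with a mouse left out. Over all genes the 4814 calls of LECs against BECs became 3595 without the block and 871 within the 890s and 900s. DESeq2 raised the calls of the interaction from 0 to 4 and those for *Lyve1* from 1 to 7. Over all genes it raised them from 47 to 1334 and from 149 to 848. With a mouse left out the edgeR calls for *Lyve1* ran from 0 to 1. For keratinocytes against LECs the 12 calls became 2–5 with a mouse left out, these fits having been chosen after seeing the data. The module value differed by −0.51 in LECs and −0.49 in BECs as a mean of log2(CPM + 1) over members, against −0.33 and −0.28. The cause of these changes was not tested. In 65 other settings of these results the value kept its direction and came within the limits set, and none reversed. With 2 control mice, 1 of them untreated, a difference between controls sets the precision of every comparison of genotypes, and the keratinocyte sums of 4–9 cells limit those values.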
